A study of Rattus norvegicus with 15 samples.

Results

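Stressed astrocytes that received isolated mitochondria were compared with stressed astrocytes that did not. The recipients were 6 RNA-seq libraries, 3 of cells given unmodified mitochondria (group Mitochondria) and 3 of cells given mitochondria coated with DOTAP/DOPE lipids (group MitoCoat). The non-recipients were the other 6 stressed libraries, 3 of cells given no further treatment (group H2O2) and 3 of cells given RNA of the mitochondrial fraction packed in the same lipids (group MitoCoat–mRNA). These 12 of the 15 libraries of the series were assigned to the pools by their labels. The other 3 were unstressed controls and entered only as a reference for levels. The cells were primary cortical astrocytes of newborn Sprague Dawley rats, and the mitochondria came from cryopreserved rat placenta. All 12 cultures had received 100 µM H2O2 for 30 min, so the stress is shared by both pools, whereas control cultures received vehicle. Treatments were added 24 h after the stress and RNA was collected 6 h later. The study's methods name 2 doses of mitochondria, and which of them the sequenced wells received is not given in the sources used here. The labels do not say that the 3 libraries of a group came from separate animals, so the p-values measure the spread between these libraries, which may be technical in part.

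Astrocytes support neurons metabolically, clear glutamate and answer to oxidative injury, and they can both release and take up mitochondria. Isolated mitochondria can enter cells by endocytic routes, and a cationic, fusogenic lipid coat such as DOTAP/DOPE eases the contact with the negatively charged cell surface. A mitochondrial preparation carries protein, lipid, its own circular genome and RNA, including cytosolic RNA bound to the outer membrane. The 4 stressed groups therefore hold the organelle without the coat, the organelle with it, the coat with RNA but no organelle, and neither. Since MitoCoat–mRNA carried both lipid and RNA, the coat and the RNA cannot be told apart among the non-recipients. In bulk RNA, fewer cells of a type and less RNA per cell cannot be told apart. For genes higher in recipients, RNA carried in with the mitochondria and RNA made by the cells cannot be told apart either. The word response below therefore means a difference between the pools, whatever its source.

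Genes are listed by Ensembl identifier alone, and none of the 32552 could be tied to a symbol through the gene table used here (0 matches). They are therefore described here by position on the Rnor6.0 assembly, with identifiers for only 4. The identity of the cells could not be checked against astrocyte markers for the same reason. Total counts ranged from 35315654 to 46778663 per library over the series, and levels are given as normalized counts per 1000000 counts (CPM). Libraries carry a number from 1 to 3 in every group, and this library number was a term of the test. Over the 12 libraries, the median correlation of same-number libraries after removal of the group means was 0.261, against −0.0957 for libraries of different numbers, across 15528 genes that are not independent replicates.

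Stressed astrocytes given mitochondria differed from those without them by small amounts in many genes and by large amounts in fewer. Of 15528 genes tested, 1025 were higher and 908 lower in recipients at a Benjamini-Hochberg adjusted p under 0.05 (edgeR's quasi-likelihood test, two-sided, 6 libraries against 6). The 1933 genes called were 12.4% of those tested, 6.6% higher and 5.85% lower. An unadjusted p under 0.05 was reached by 3620 genes (23.3%). The normalized CPM of the recipients and the non-recipients did not overlap for 989 genes, 6.37% of those tested, of which 537 (3.46%) were higher in recipients and 452 (2.91%) lower. The median log2 fold change of all genes tested was 0.0082 with TMM factors and −0.0037 with RLE factors. Both methods bring this median near 0 by construction, so it is no test of the scaling. With RLE factors the calls were 954 higher and 976 lower, so the small surplus of higher genes turned with the scaling.

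The sizes of the changes were not symmetric. Among the genes called higher, 211 exceeded 2-fold and 76 exceeded 4-fold. Among the genes called lower, 60 exceeded 2-fold and 2 exceeded 4-fold. Genes of low level in non-recipients can pass the filter on low counts through the recipients, and they are part of these counts. Among called genes with at least 1 CPM in non-recipients, 103 of 903 higher genes and 52 of 898 lower genes exceeded 2-fold, and 28 and 2 exceeded 4-fold. Over all calls, most changes were within 1.5-fold, with 611 of the higher genes (59.6%) and 651 of the lower genes (71.7%) in that range. The median log2 fold change was 0.48 for the genes called higher and −0.43 for the genes called lower.

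**Figure D1:**
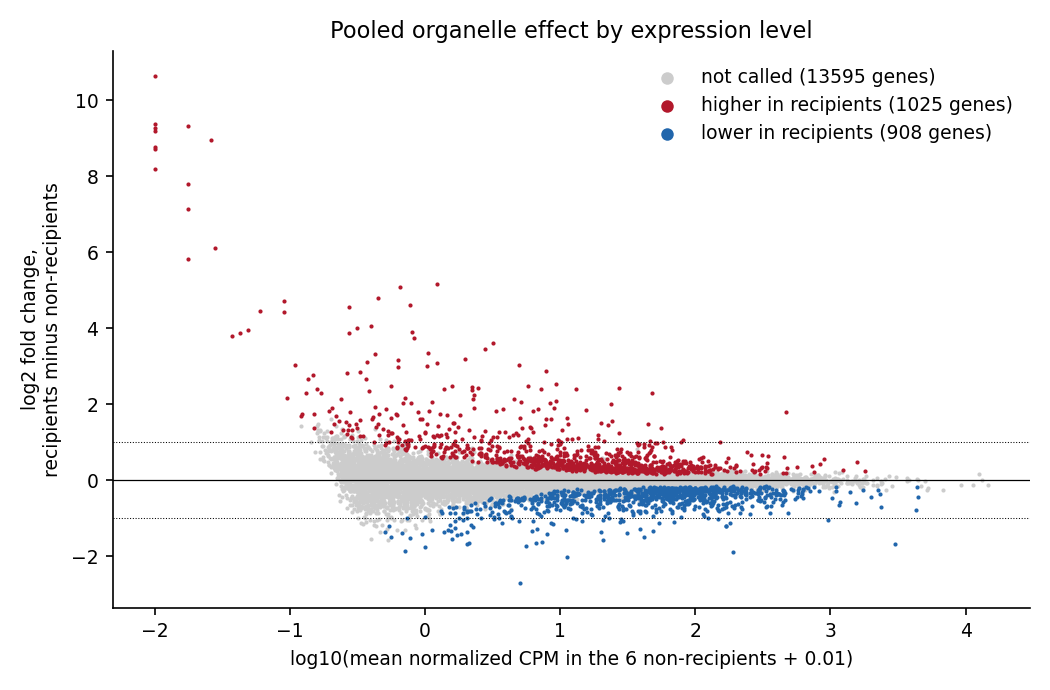
Each point is 1 of 15528 genes, with the log10 of its mean normalized CPM in the 6 non-recipients plus 0.01 on the x axis and the log2 fold change of recipients over non-recipients on the y axis. Genes called higher (1025, red) reach log2 fold changes above 4, while genes called lower (908, blue) stay above −2.7 and lie further to the right, and dotted lines mark 2-fold.

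Among called genes at 1 CPM or more in non-recipients whose pools did not overlap, the largest rise was that of ENSRNOG00000033220 at chr12:41227825-41307352. Its normalized CPM was 0.758 to 1.69 in the non-recipients (median 1.19) and 32.8 to 55.8 in the recipients (median 41.9). The pools were separated by a wide gap, and no recipient was near the highest non-recipient. The log2 fold change was 5.15 ± 0.176 (SE, adjusted p = 2.83e-11, edgeR), and the gene overlaps 1 other annotated gene. The next was ENSRNOG00000028895 at chr11:80638945-80650802, with 2.55 to 3.82 CPM in the non-recipients (median 3.12) and 30.9 to 45 CPM in the recipients (median 40.9). Every recipient exceeded every non-recipient, and the log2 fold change was 3.62 ± 0.117 (SE, adjusted p = 2.44e-11, edgeR). In controls these genes had 2.49 ± 0.341 CPM and 6.01 ± 1.23 CPM (SD, n = 3), above the non-recipients and far below the recipients in both cases.

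Further genes rose by 5-fold or more. The gene at chr10:88599680-88611105 had a median of 2.73 CPM in non-recipients and 32.5 CPM in recipients (10.9-fold), and the gene at chr12:47469598-47482961 had medians of 4.92 and 40.3 CPM (8.18-fold). At chr1:214248837-214252456 the lowest recipient had 40.4 CPM and the highest non-recipient 9.63 CPM, a 7.29-fold rise. The gene at chr4:153805993-153834430 rose 5.8-fold, from a median of 9.11 to 50 CPM. On chromosome 11, genes at 37891156-37914983 and 38035450-38059950 rose 10.2-fold and 5.34-fold, and the second of them was among the more abundant genes of this kind, at 27 ± 1.09 CPM in non-recipients and 145 ± 20.7 CPM in recipients (SD, n = 6). The gene at chr10:34213936-34221928 rose 5.27-fold, from 13.1 ± 1.28 to 69.2 ± 9.36 CPM (SD, n = 6). The gene at chr7:118927008-118933812 rose 34.1-fold from a level below 1 CPM, 0.646 ± 0.3 CPM in non-recipients against 22.1 ± 3.32 CPM in recipients (SD, n = 6). Most of these genes were chosen for pools that do not overlap.

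The largest decrease was that of ENSRNOG00000000952 at chr12:9605873-9607168. Its normalized CPM was 3.71 to 6.19 in the non-recipients (median 5.11) and 0.373 to 1.21 in the recipients (median 0.75). The lowest non-recipient lay well above the highest recipient, and the log2 fold change was −2.69 ± 0.193 (SE, adjusted p = 1.11e-07, edgeR). In controls the gene had 10.7 ± 2.13 CPM (SD, n = 3), so the order was controls, then non-recipients, then recipients. ENSRNOG00000014361 at chr17:22137324-22143324 had 10.5 to 11.8 CPM in the non-recipients (median 11.4) and 1.45 to 4.89 CPM in the recipients (median 2.77). The 6 non-recipients hardly varied, whereas the recipients differed among themselves by more than 3-fold and still did not reach them. The recipients rose with the library number, with 1.45, 2.78 and 4.26 CPM in Mitochondria libraries 1 to 3. MitoCoat libraries 1 to 3 had 1.68, 2.75 and 4.89 CPM. The fit gives a single fold change for all numbers. Its log2 fold change was −2.02 ± 0.193 (SE, adjusted p = 2.2e-06, edgeR), and controls had 9.14 ± 1.26 CPM (SD, n = 3).

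Abundant genes were among those that fell. The gene at chr1:21851660-21854773 had 2748 to 3257 CPM in the non-recipients (median 2988) and 720 to 1258 CPM in the recipients (median 936), and its log2 fold change was −1.66 ± 0.0839 (SE, adjusted p = 1.2e-09, edgeR). It held 2512 ± 366 CPM in controls (SD, n = 3), which is below the non-recipients and far above the recipients. The gene at chr6:127075954-127127413 fell from a median of 190 to 48 CPM, and controls had 109 ± 30.6 CPM (SD, n = 3), between the pools. The gene at chr7:121214628-121232741 fell from a median of 43.2 to 14.3 CPM, and the gene at chr4:171069191-171176581 from 21.1 to 6.62 CPM.

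**Figure D2:**
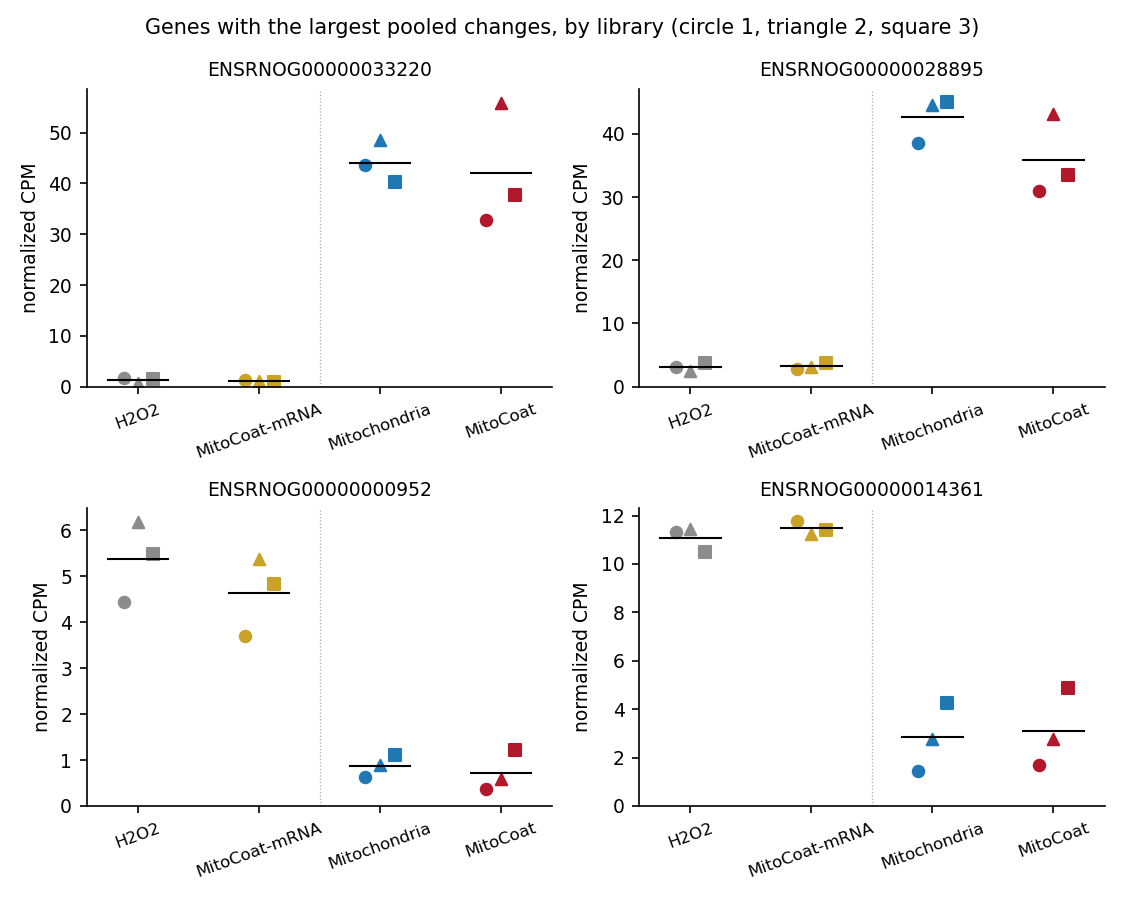
Normalized CPM of the 4 genes given by identifier in each of the 12 stressed libraries, with the groups on the x axis, the marker shape for the library number and a black line at the mean of each group of 3. The 2 upper genes lie below 4 CPM in all non-recipients and above 30 CPM in all recipients, and the 2 lower genes show the opposite order without overlap.

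Pooling narrowed the errors and added calls that the comparisons of 3 against 3 did not make. The median SE of a log2 fold change was 0.0952 in the pooled test and 0.13 in the contrasts of 3 against 3 within 1 fit of all 4 groups. The 95% confidence interval lay within 1.5-fold for 69.9% of genes in the pooled test, against 60% for Mitochondria over H2O2 and 59.7% for MitoCoat over MitoCoat–mRNA. The 1933 pooled calls were then set beside 4 fits of 6 libraries each, in which either recipient group was compared with either non-recipient group. These fits use the same libraries as the pooled test and are no independent evidence, so the counts describe only where the pooled calls come from. All 4 fits called 344 of them (17.8%), with a median change of 1.82-fold. None of the 4 fits called 569 (29.4%), of which 323 were higher and 246 lower, with a median change of 1.23-fold. For 167 of these 569 genes the pools did not overlap. Thus the genes that the pooled test adds were mostly small changes, as the plot of pooled calls by number of smaller fits shows.

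**Figure D3:**
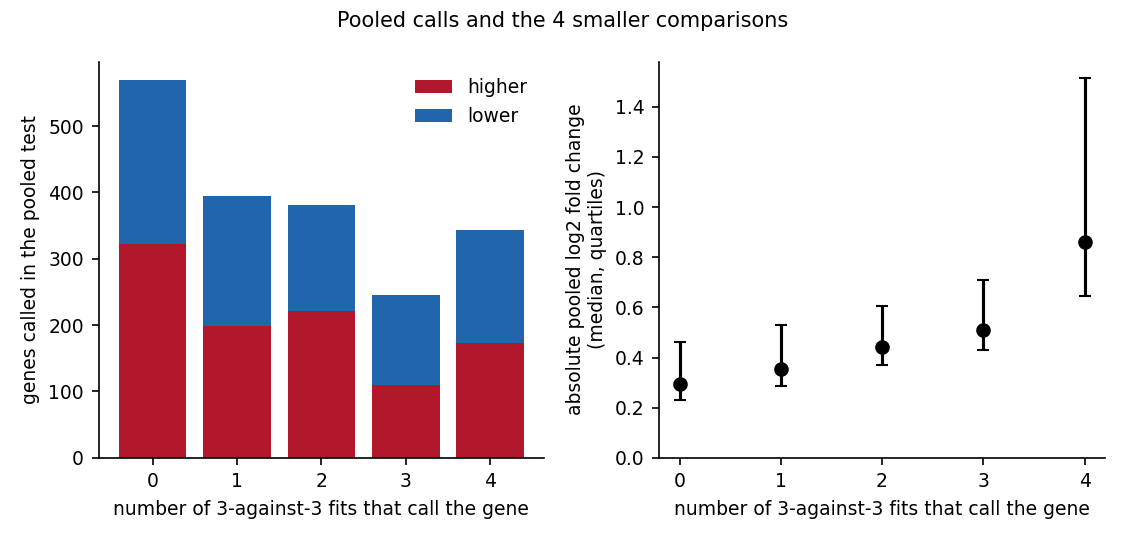
The 1933 pooled calls by how many of the 4 fits of 3 against 3 libraries also call them (x axis), as a number of genes on the left (higher red, lower blue) and as the absolute pooled log2 fold change on the right (points are medians, bars are quartiles). The median rises from 0.29 for genes called by no smaller fit to 0.86 for genes called by all 4.

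The comparison can be divided into 2 sets of 6 libraries with none in common. Both sets hold libraries numbered 1 to 3, and libraries of the same number tended to correlate. The sets may therefore share what a number shares and are not independent. In Mitochondria against H2O2 on its own 6 libraries, 1243 genes were called, 7.96% of those tested. In MitoCoat against MitoCoat–mRNA on the other 6, 396 were called, 2.53% of those tested. Of the 1236 genes called in the first set and tested in the second, 1169 (94.6%) changed in the same direction and 362 (29.3%) were called again, with 0 called in the opposite direction. Without the library number as a block the first set had 560 calls (3.59%) and the second 467 (2.98%), and 321 of the 555 tested in both (57.8%) were called again. Over all genes tested in both sets, 63% had the same direction. In the reverse order, all 392 genes called in the second set and tested in the first had the same direction there, and 362 (92.3%) were called. The genes called in the first set had a median absolute log2 fold change of 0.60 there and 0.47 in the second, so the size shrank where the genes had not been chosen. The fold changes of the 2 sets correlated with Pearson's r = 0.649 and Spearman's rho = 0.366 across 15320 genes, which are not independent replicates. Crossing the groups, with MitoCoat against H2O2 (924 called, 5.88%) as the first set and Mitochondria against MitoCoat–mRNA (1141 called, 7.33%) as the second, gave 579 of 919 genes called again (63%) and 96.7% with the same direction. Without the block the crossed sets had 479 and 554 calls, and 302 of 474 genes were called again (63.7%).

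**Figure D4:**
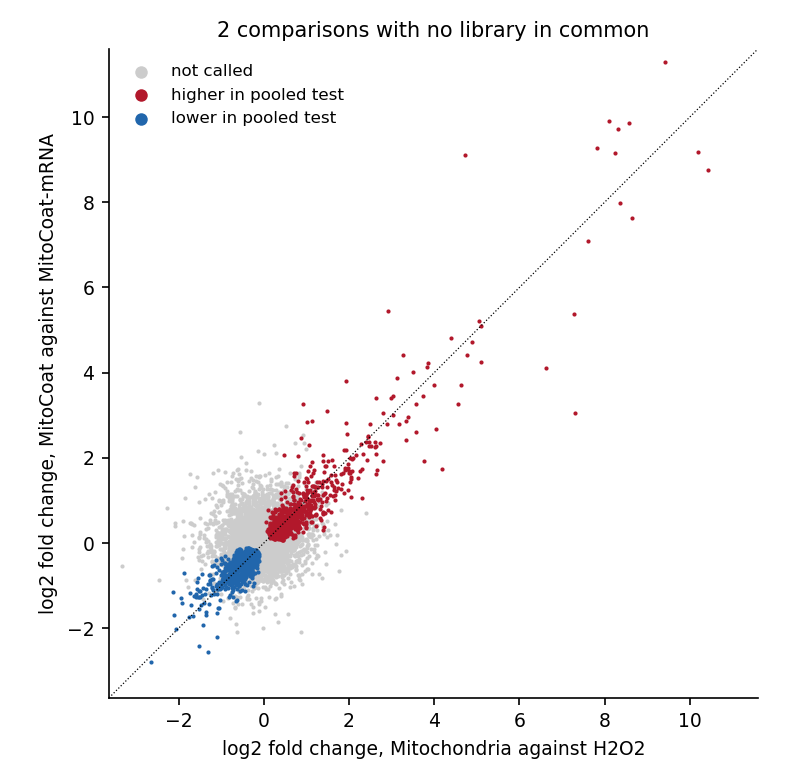
Log2 fold changes of 15320 genes in 2 comparisons with no library in common, Mitochondria against H2O2 on the x axis and MitoCoat against MitoCoat–mRNA on the y axis, with the line of equality dotted. Genes called in the pooled test (red higher, blue lower) lie in the upper right and lower left, which their choice on all 12 libraries favours.

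A second division left out the 4 libraries of 1 number at a time. Genes called on the other 8 libraries kept their direction in the left-out 4 for 93.4% of 1567 genes with number 1 left out, 99.9% of 867 genes with number 2 and 94.3% of 1352 genes with number 3. The shares over all genes tested were 59.3%, 73.7% and 60.9%. The median size, in the direction of the call, was 0.495 on the libraries used and 0.4 on those left out for number 1, 0.642 and 0.614 for number 2, and 0.55 and 0.452 for number 3. The change was therefore present in each library number, although without number 2 the calls fell to 456 higher and 411 lower.

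No difference between the responses with and without the coat passed the test. The organelle effect was called for 1013 genes without the coat (6.52% of those tested, Mitochondria against H2O2 in the fit of all 4 groups, and 669, 585 or 663 without Mitochondria 1, 2 or 3) and for 948 genes with it (6.11%, MitoCoat against MitoCoat–mRNA, 567 without the block, 458 without MitoCoat 2, and 515 or 516 without MitoCoat–mRNA 2 or 3). The crossed contrasts of the same fit called 1281 genes for MitoCoat against H2O2 (8.25%) and 832 for Mitochondria against MitoCoat–mRNA (5.36%). The difference between these effects, tested as an interaction, was called for 0 genes by edgeR and for 0 by DESeq2, the smallest adjusted p was 0.877 (edgeR) and 741 genes (4.77%) had an unadjusted p under 0.05. Among the 1933 pooled calls that share was 4.91% (95 genes). The interval of the interaction lay within 2-fold for 85.2% of the pooled calls, and reached beyond 2-fold for the others. Of the genes named above, that at chr11:37891156-37914983 had the widest separation, with a log2 fold change of 4.05 without the coat and 2.69 with it, a difference of −1.36 ± 0.388 (SE) that did not pass the adjustment (adjusted p = 0.877, edgeR).

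Within the non-recipients, the lipid-packed RNA made no detectable difference. MitoCoat–mRNA against H2O2 gave 0 called genes with edgeR and with DESeq2 (0% of those tested), with 697 genes (4.49%) at an unadjusted p under 0.05. The 95% interval lay within 1.5-fold for 67.2% of genes. Within the recipients, MitoCoat against Mitochondria gave 1 called gene (0.00644% of those tested), higher with the coat, at chr17:4165041-4167411. Its counts were 240, 250 and 50 with unmodified mitochondria and 1103, 664 and 146 with MitoCoat, against 0, 0 and 0 with H2O2 alone and 2, 2 and 0 with MitoCoat–mRNA. The coated libraries exceeded the uncoated library of their own number each time, by 3.46-fold in the fit (adjusted p = 0.00514, edgeR), although library 3 with the coat was below libraries 1 and 2 without it. The call was lost without the library number as a block and when any of Mitochondria 1 to 3, MitoCoat 1 or MitoCoat 2 was left out. DESeq2 and a fit of the recipient libraries alone called a few genes more.

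The size of the difference between the pools was then described for each recipient library. Each library was set against the mean of the non-recipients of its own number, over the genes called in the pooled test, which fixes the direction and favours genes that change alike in every recipient. For the 1025 genes called higher, the median log2 difference was 0.491, 0.493 and 0.483 in Mitochondria libraries 1 to 3 and 0.491, 0.48 and 0.456 in MitoCoat libraries 1 to 3. For the 908 genes called lower, it lay between −0.444 and −0.37. These medians lay close together, which the choice of genes favours, and single genes such as ENSRNOG00000014361 (1.45 to 4.89 CPM in recipients) varied far more. Transcripts near 0 in the non-recipients were defined as genes with at most 1 count over the 6 non-recipients together and at least 5 counts in each recipient, a rule that fixes their difference. There were 11, all with 0 counts in the 6 non-recipients, and 0 genes met the reverse rule. Their summed level was 14, 12.6 and 4.74 CPM with unmodified mitochondria and 42.4, 29.7 and 8.86 CPM with MitoCoat, libraries 1 to 3. The lowest of these sums was in library 3 of each group and the highest in library 1. In every number the sum was higher with MitoCoat than with unmodified mitochondria, which was not tested. Single transcripts did not all follow the sums. That at chr12:41340815-41363161 had 32, 48 and 51 counts in Mitochondria libraries 1 to 3 and 50, 16 and 30 in MitoCoat libraries 1 to 3. The part of these transcripts in the response of the other genes was not tested.

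**Figure D5:**
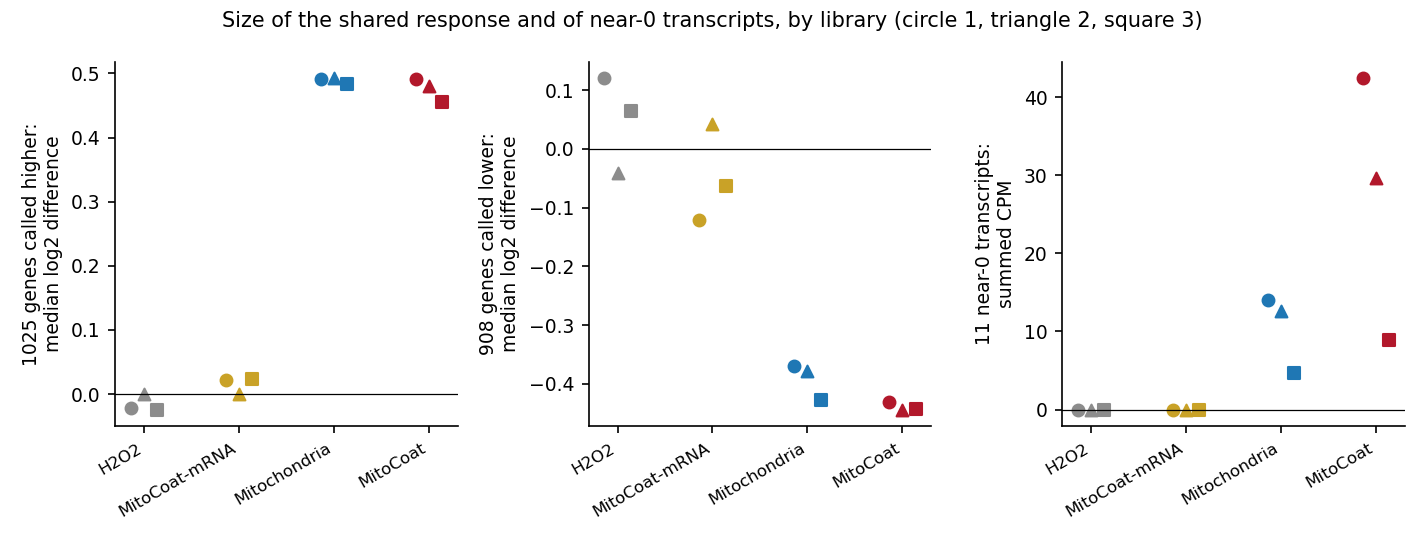
The median log2 difference to the non-recipients of the same number for genes called higher (left) and lower (middle), and the summed CPM of the 11 near-0 transcripts (right), for each of the 12 stressed libraries, with the groups on the x axis and the marker shape for the library number. In recipients the left values lie between 0.456 and 0.493, while the right values run from 4.74 to 42.4 CPM.

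Of the 11 near-0 transcripts, 5 lie on chromosome 17, 3 on chromosome 1 and 1 each on chromosomes 4, 8 and 12. The most abundant, at chr17:39188311-39463715, had 142, 105 and 20 counts with unmodified mitochondria and 561, 344 and 64 with MitoCoat. Its mean over the 6 recipients was set against the limit that 0 counts over the 6 non-recipients allow (3 counts, 0.0122 CPM, counting error only). This mean was at least 409-fold above the limit, and the means of the others were at least 73.9-fold above it. Single recipients lay well below the mean, and without MitoCoat 1 the mean of the most abundant transcript was 3.33 in place of 4.95 normalized CPM. The unstressed controls also had 0 counts for 9 of them, but 12 counts in all for the transcript at chr4:78496043-78515584 and 10 for that at chr12:41340815-41363161, which lies at higher coordinates than ENSRNOG00000033220 on the same chromosome. The 0 counts in the H2O2 and MitoCoat–mRNA libraries follow from the rule that chose these transcripts and say nothing more about either group.

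The direction of change went with the level of expression. Among 2073 genes above 100 CPM in the non-recipients, 73 were called higher (3.52%) and 279 lower (13.5%). The lower share among these genes was 14.8% with RLE factors and 16.9% with DESeq2, and the higher share 3.09% and 3.81%. These factors, like those of the main fit, all centre on the bulk of genes. They therefore cannot test whether the preponderance of decreases depends on the scaling. The level classes were cut on the mean of the non-recipients, 1 side of the contrast, which favours decreases in the top class. Between 10 and 100 CPM, 7.2% of 7178 genes were higher and 6.44% lower, and between 1 and 10 CPM, 7.94% of 3944 were higher and 3.98% lower. Genes under 1 CPM in non-recipients are left out of this account, because they can pass the filter on low counts through the recipients alone.

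Called genes were also longer. The median exonic length was 2624 bases for genes called higher, 2968.5 for genes called lower and 2270 for all genes tested. Genes with a single exon block made up 3.71%, 4.41% and 7.66% of these sets. Their span in the genome had medians of 20177, 29962.5 and 18965 bases. Length and level both bear on how readily a gene is called, and their part in these differences was not tested. Over the autosomes, the share of genes called higher ran from 4.46% on chromosome 12 to 9.07% on chromosome 20, and the share called lower from 3.36% on chromosome 19 to 8.56% on chromosome 15. On the X chromosome, 2.1% of 524 genes were higher and 4.77% lower.

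Some of the large rises were neighbours in the genome. Genes called with more than a 2-fold change in 1 direction were joined where neighbours lay no more than 1000000 bases apart, and runs of at least 4 such genes were kept. The 211 higher genes gave 4 runs that held 22 of them. The 60 lower genes gave 0, but a list of that size offers fewer neighbours, so the 2 lists were not compared. The runs are a description, since they were built from large rises, and over all genes tested 6.6% were called higher. The run at chr14:18576355-19159923 held 10 tested genes, of which 7 were called higher and 0 lower, and the 6 genes above 2-fold summed to 57.1 CPM in non-recipients and 293 CPM in recipients. Most of it came from the gene at chr14:18743685-18745457, with 47.7 CPM in non-recipients and 248 CPM in recipients, a log2 fold change of 2.31 ± 0.27 (SE). A neighbour at chr14:18860264-18862407 had 0.787 CPM in non-recipients and 15 CPM in recipients, where Mitochondria 3 had 44.9 CPM and the median was 7.41 CPM. Without Mitochondria 3 its recipient mean was 9.04 CPM.

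The run at chr10:87959408-88611105 held 22 tested genes, of which 8 were called higher and 0 lower, and it ends with the gene at chr10:88599680-88611105 described above. In this run and in that on chromosome 14, some of the called genes were far below 1 CPM in non-recipients and could pass the filter through the recipients, so these counts are no support for a direction. Levels differed widely, with 0.255 CPM in non-recipients and 1.81 CPM in recipients for the gene at chr10:88006179-88009576 and 12.2 and 25.8 CPM for that at chr10:88257976-88266210. The run at chr17:38710432-39575720 held genes near 0 in non-recipients. Of its 6 tested genes, 5 were called higher, and these summed to 0.0961 CPM in non-recipients and 12.2 CPM in recipients. They were tested only because the recipients carried them past the filter, so this count is no support for a direction. The run at chr1:79396578-80744831 held 49 tested genes, of which 6 were higher and 1 lower. Of the genes above 2-fold there, 3 had 0 or nearly 0 CPM in non-recipients, whereas those at chr1:80517411-80544825 and chr1:80730499-80744831 rose from 7.86 to 24.5 CPM and from 7.76 to 21 CPM. Near-identical gene copies can share reads, and with uniquely mapped reads alone the split of counts among neighbours of 1 family is uncertain.

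The share of counts on the mitochondrial chromosome did not differ detectably between the pools. It was 3.71 ± 0.505% in recipients and 3.61 ± 0.715% in non-recipients (SD, n = 6 each), a difference of 0.0968 percentage points (exact permutation test within library number, two-sided p = 0.796, smallest possible p 0.00926). The recipients ran from 3.18% to 4.48% and the non-recipients from 2.81% to 4.61%, so the pools overlapped almost fully. Within the recipients the groups did not overlap, with 3.18%, 3.47% and 3.35% in Mitochondria libraries 1 to 3 and 3.6%, 4.48% and 4.17% in MitoCoat libraries 1 to 3, a difference that was not tested. Of 35 annotated mitochondrial genes, 28 were tested and 0 were called by edgeR or DESeq2, with 0 and 1 at an unadjusted p under 0.05. The 13 genes of at least 200 bases had log2 fold changes from −0.08 to 0.16, and their smallest adjusted p was 0.684 (edgeR). The 15 shorter genes tested ran from −0.73 to 0.40, with a smallest adjusted p of 0.222 (edgeR). The labels describe the RNA as poly(A), so these values refer to polyadenylated mitochondrial RNA.

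The 3 unstressed control libraries, which were not used in the calls, place the response relative to parallel cultures without stress. Of the 1025 genes called higher, the control mean lay below both pools for 550 (53.7%), between them for 397 (38.7%) and above both for 78 (7.61%). Of the 908 genes called lower, it lay above both pools for 632 (69.6%), between them for 207 (22.8%) and below both for 69 (7.6%). Over all genes tested, the control mean was below both for 42.2%, between for 17.4% and above both for 40.4%. The median log2 difference to controls of the genes called lower was −0.16 in non-recipients and −0.61 in recipients, and that of the genes called higher was 0.04 and 0.55. A wider gap between the pools leaves more room for a control mean between them, so the placement of the larger changes is only a description. Among the 211 genes that rose more than 2-fold it lay between the pools for 120, below both for 81 and above both for 10. Among the 60 genes that fell more than 2-fold it lay above both pools for 42, between them for 17 and below both for 1.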

How the data were processed

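RNA-seq counts of 12 stressed libraries, with 3 controls for reference, were analysed. Reads had been trimmed by the authors (Trimmomatic 0.36), aligned with STAR 2.5.2b to Rnor6.0 with its Ensembl annotation, and counted with featureCounts of Subread 1.5.2 where they mapped uniquely to exons, by strand where applicable. The deposited values are raw counts per gene, 1 file per library, without normalization. 1 further file was identical to that of 1 library and was not used. The labels also speak of RNA from mitochondria-enriched fractions, whereas the study describes RNA of the astrocytes, which was assumed here.

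Counts were tested in R 4.3.3 with edgeR 4.0.16 (filterByExpr on the pools with its minimum count of 10, TMM factors, quasi-likelihood F test, two-sided), with library number and the recipient factor as terms. A second fit had 4 groups in place of the factor. Adjusted p-values (Benjamini-Hochberg, threshold 0.05) cover all genes tested. Normalized CPM are counts per 1000000 after TMM scaling, and their log2 values for differences between libraries used a prior count of 2. Alternatives were RLE factors, 2 other filters, DESeq2 1.42.0, other models, single groups as pools, and each library or library number left out. No 2 libraries of a group were copies of each other (variance of counts relative to counting error 10.6 to 59.7).

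The comparison, its members and the lists were chosen with earlier results of these data known. Runs of neighbouring genes, level ranges and placement relative to controls were added after the data were seen. Named genes were the 12 with the largest and the 12 with the smallest log2 fold change among genes of at least 1 CPM in non-recipients, called and without overlap, the 5 with the smallest adjusted p, and the near-0 transcripts. By rule, 2 identifiers that rose and 2 that fell are given. With 0 of 32552 identifiers matched, lists of pathways and cell type markers were not analysed here.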

Additional observations from a re-analysis of the deposited data

Results flagged for a closer look

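Values far from the others of their pool of 6 were looked for in 67 sets of 6 libraries with Dixon's criterion, which flags about 1 set in 20 by chance, and 5 were found. Among recipients, Mitochondria library 3 had 33.1 CPM of the gene at chr14:17210733-17212930, where the median of the 6 was 16.5 CPM. Mitochondria library 2 had 3.2 CPM of the gene at chr2:124400679-124405331 (median 1.95), and MitoCoat library 3 had 9.73 CPM of the gene at chr4:171069191-171176581 (median 6.62). Among non-recipients, MitoCoat–mRNA library 1 had 12.8 CPM of the gene at chr4:153805993-153834430 (median 9.11), and H2O2 library 3 had 2.89 CPM of the gene at chr4:144192989-144252551 (median 1.55). The gene at chr17:4165041-4167411 differed between coated and unmodified mitochondria, with a log2 fold change of 1.79 (adjusted p = 0.00514, edgeR), and was higher with the coat in 3 of 3 libraries of the same number.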

How the results depend on the processing

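The counts of genes higher and lower in recipients stayed within 1.5-fold of 1025 and 908 with RLE factors, both other filters (1115 and 1149 without a filter beyond 1 count in total, 936 and 971 with at least 10 counts in every library), DESeq2 with the replicate block (1136 and 1187), the contrast of 4 groups (1025 and 943) and a term for the coat (1054 and 938). Without the replicate block they were 860 and 733. Of 18 same-number pairs, 16 had a correlation over 0.1 (lowest −0.0222), and 10 of 12 libraries correlated best with their own number in every other group, so the rule that every pair exceed 0.1 was not met, and the labels do not say what a number shares. With fewer libraries the counts fell to 607 and 476 with MitoCoat–mRNA alone as non-recipients, 598 lower with Mitochondria alone as recipients and 600 higher with MitoCoat alone, fits of 9 libraries. With each library or library number left out, the counts ran from 456 to 1046 higher and from 411 to 1000 lower, and only leaving out number 2, with 4 libraries fewer, moved them by over 1.5-fold.

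The organelle effect with the coat (948 genes) was 567 without the replicate block, 396 on its own 6 libraries and 458 to 1412 with 1 library left out (458 without MitoCoat 2, 515 and 516 without MitoCoat–mRNA 2 or 3). Without the coat (1013 genes) it was 585 to 1252, with 669, 585 and 663 without Mitochondria 1, 2 or 3. MitoCoat against Mitochondria gave 0 genes without the replicate block, 3 with DESeq2, 5 on its own 6 libraries and 0 to 3 with 1 library left out. Genes called in both sets of 6 libraries were 362, 321 without the replicate block and 579 with crossed groups. The interaction and MitoCoat–mRNA against H2O2 gave 0 under every alternative run. The difference in mitochondrial share ran from −0.0636 to 0.296 percentage points with 1 library left out and turned to −0.0318, −0.057 and −0.0636 without H2O2 3, MitoCoat 2 or MitoCoat–mRNA 3 (permutation p 0.417 to 0.991). Permuted without the replicate block, its p was 0.786. Near-0 transcripts numbered 17 under the rule of 0 counts in non-recipients and at least 1 count in each recipient, and 11 to 15 with 1 library left out, an alternative added after seeing the data. Of 701 alternative values of the 27 named genes, 701 kept direction and significance. These genes were chosen on the same libraries for large or clear differences, which favours this outcome, so it is no independent support. Changes within about 1.5-fold may have been missed for many genes with this number of libraries, and the part of sequencing depth was not tested.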

Other observations

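The summed level of genes on the Y chromosome followed the library number in all 5 groups. It was 94.7 to 119 CPM in the 5 libraries numbered 1, 75.7 to 89 CPM in those numbered 2 and 47 to 59.8 CPM in those numbered 3, with no overlap between the numbers. These are values over all 15 libraries and were not tested.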
